A study of Mus musculus with 4 samples.

Results

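The genes described here encode enzymes of mitochondrial fatty acid oxidation and the tricarboxylic acid (TCA) cycle, with the pyruvate dehydrogenase complex, its kinases, branched-chain oxidation, acetate activation and the receptor gene Ppara. They are a list of 40 symbols, fixed with earlier results of these data known and looked up in the platform annotation. Of these, 39 had a probe set naming that gene alone, among 19938 such genes, and the 40th, Cpt1b, lay only on a shared probe set. All 39 passed the filter on low values, which left out the dimmest 25% of genes by mean log2 level over the arrays and left 14953 genes tested.

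RNA of whole skin from E17.5 mouse embryos (age in days of gestation), labelled female, was measured on 4 Affymetrix arrays, each holding RNA of 2 mice. The Ovol2 BT group (2 arrays, strain given as FVB/N) carried TRE-Ovol2-Flag, a tetracycline-responsive Ovol2 transgene, together with K5-tTA, a tetracycline transactivator driven from a keratin 5 promoter active in basal epidermis. The Control group (2 arrays, strain given as CB6F1) carried TRE-Ovol2-Flag alone or was wild type, and so lacked the driver. The strain labels differ between the groups although the animals are also described as littermates, and the labels do not settle this conflict. Strain, driver and transgene cannot be told apart. Ovol2, which encodes an epithelial zinc finger factor, had intensities of 4367 and 3893 in Ovol2 BT skin, against 360 and 161 in Control skin (log2 difference 4.0, SE 0.33, limma adjusted p = 0.00311). Median intensities of all probe sets lay between 123 and 132. The arrays are called biological replicates, and p-values measure the spread between these pools of 2 mice. Precision is limited by there being only 4 arrays.

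Long-chain fatty acids enter mitochondria as carnitine esters and are then shortened in a repeated spiral of dehydrogenation, hydration, a further dehydrogenation and thiolysis. Electrons leave the spiral through flavoproteins and NADH, and the acetyl-CoA made is burned in the TCA cycle, which also receives acetyl-CoA from pyruvate. Brown fat, heart and working muscle depend heavily on this route, and pyruvate dehydrogenase kinases hold back pyruvate when fat is the fuel. The nuclear receptor PPARα, product of Ppara, directs transcription of many of these enzymes.

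Most of these genes had higher values in Ovol2 BT skin, while few passed the test one by one. Ppara, Pdk4 and Eci1 rose, by 3.40-fold, 2.75-fold and 2.67-fold, and 0 of the 39 were called lower. Calls required an adjusted p below 0.05 in limma, with Benjamini-Hochberg adjustment over all 14953 genes. The list was chosen with earlier results of these data known, so the shares given here describe it and test nothing. The share called higher was 3 of 39 genes here, against 0.615% of all genes tested, and for lower calls the share of all genes was 0.348%. Values were higher in Ovol2 BT for 37 of 39 genes, against 44.4% of all genes tested. For 31 genes both Ovol2 BT arrays stood above both Control arrays, against 20.4% of all genes. For 1 gene, Cpt1a, both stood below, against 21.9% of all genes. The median log2 difference, Ovol2 BT minus Control, was 0.60, beside -0.041 for all genes tested. At an unadjusted p under 0.05 in limma, 27 genes were higher, against 5.11% of all genes, and 0 were lower, against 5.24%. With 1 array left out, the median of the 39 genes lay between 0.53 and 0.72. With each array centred on its desmosome and adherens junction genes, 27 of the 39 genes were called higher, against 1388 of all 14953 genes tested. There 95.4% of all calls were higher, against 63.9% as reported. That centring moved the median of all genes to 0.34 and that of the 39 genes to 0.97, and the junction genes themselves had a median of -0.25 before it, with 18 of 20 tested at lower values.

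**Figure D1:**
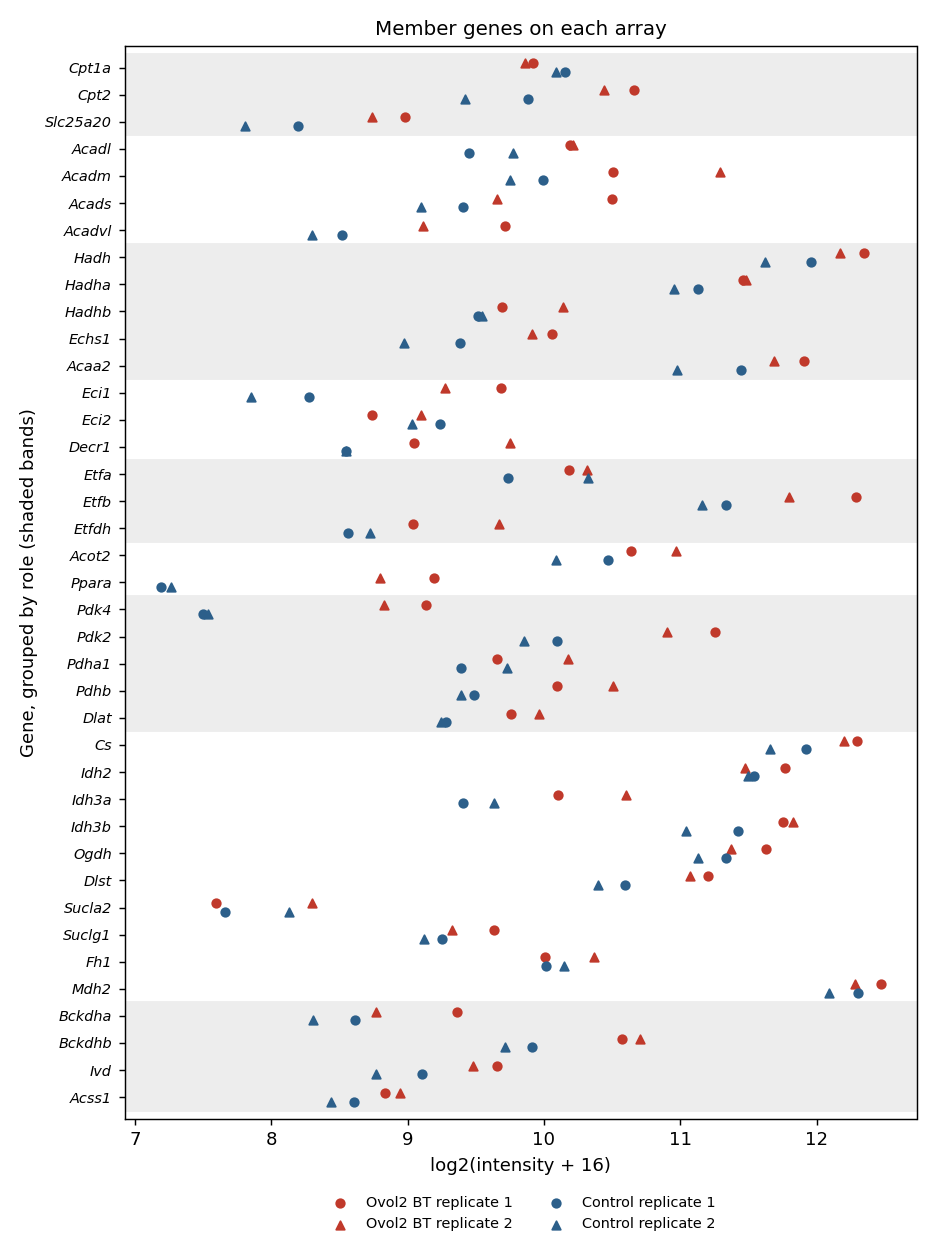
Level of each of the 39 genes on each array, as log2(intensity + 16) on the horizontal axis, with genes grouped by role down the page. Red marks are Ovol2 BT and blue marks Control, circles replicate 1 and triangles replicate 2; for 31 genes both red marks lie to the right of both blue ones.

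The regulator Ppara showed the largest difference of the 39 genes tested. Its intensity was 570 and 429 in Ovol2 BT skin, against 130 and 138 in Control skin. Both Ovol2 BT arrays stood far above the Control arrays, which were close to each other. The log2 difference was 1.77 (SE 0.22, 95% interval 1.27 to 2.26, limma adjusted p = 0.00760, 2 arrays per group). Acot2, a mitochondrial thioesterase that PPARα induces, had intensities of 1579 and 1986 in Ovol2 BT skin, against 1399 and 1074 in Control skin. The groups did not overlap, but Acot2 was not called (log2 difference 0.52, SE 0.22, limma adjusted p = 0.460). Acot2 and Acot1 have closely similar sequences, so probes may not separate them fully, and Acot1 stood at 0.048 (95% interval -0.51 to 0.60).

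The pyruvate dehydrogenase kinases were the other regulators with large differences. Pdk4, a kinase induced by fasting that switches off pyruvate dehydrogenase, had 546 and 438 in Ovol2 BT skin, against 165 and 170 in Control skin. It rose by 1.46 on the log2 scale (SE 0.21, 95% interval 0.98 to 1.94, limma adjusted p = 0.0152). Pdk2, the widely expressed kinase of the family, had 2423 and 1901 in Ovol2 BT skin, against 1080 and 909 in Control skin. Its groups were well apart, yet it missed the threshold (log2 difference 1.10, SE 0.21, limma adjusted p = 0.0578). Pdk2 was called with the lowest 50% of genes left out, under quantile normalization, under median centring and with a robust variance trend (limma adjusted p = 0.0210, 0.0380, 0.0458 and 0.0482). It was also called with arrays centred on junction genes, and when Control replicate 1 or Ovol2 BT replicate 2 was omitted (limma adjusted p = 1.13e-05, 0.00822 and 0.0213). When Ovol2 BT replicate 1 or Control replicate 2 was omitted it was not called (limma adjusted p = 0.109 and 0.0987). The kinases Pdk1 and Pdk3, from a list of further TCA and pyruvate entry genes, stood at 0.39 and -0.53 and were not called (limma adjusted p = 0.563 and 0.498).

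Subunits of the complex that these kinases act on had smaller differences. Pdhb, the beta subunit of the decarboxylase, had 1080 and 1441 in Ovol2 BT skin, against 701 and 655 in Control skin (log2 difference 0.87, SE 0.22, limma adjusted p = 0.169). Dlat, the acetyltransferase core, had 851 and 983 in Ovol2 BT skin, against 608 and 592 in Control skin (log2 difference 0.60, SE 0.21, limma adjusted p = 0.358). Pdha1, the alpha subunit that the kinases phosphorylate, overlapped between groups, with 791 and 1142 in Ovol2 BT skin, against 654 and 832 in Control skin. Its log2 difference of 0.36 had a 95% interval of -0.20 to 0.92. None of these subunit genes was called.

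**Figure D2:**
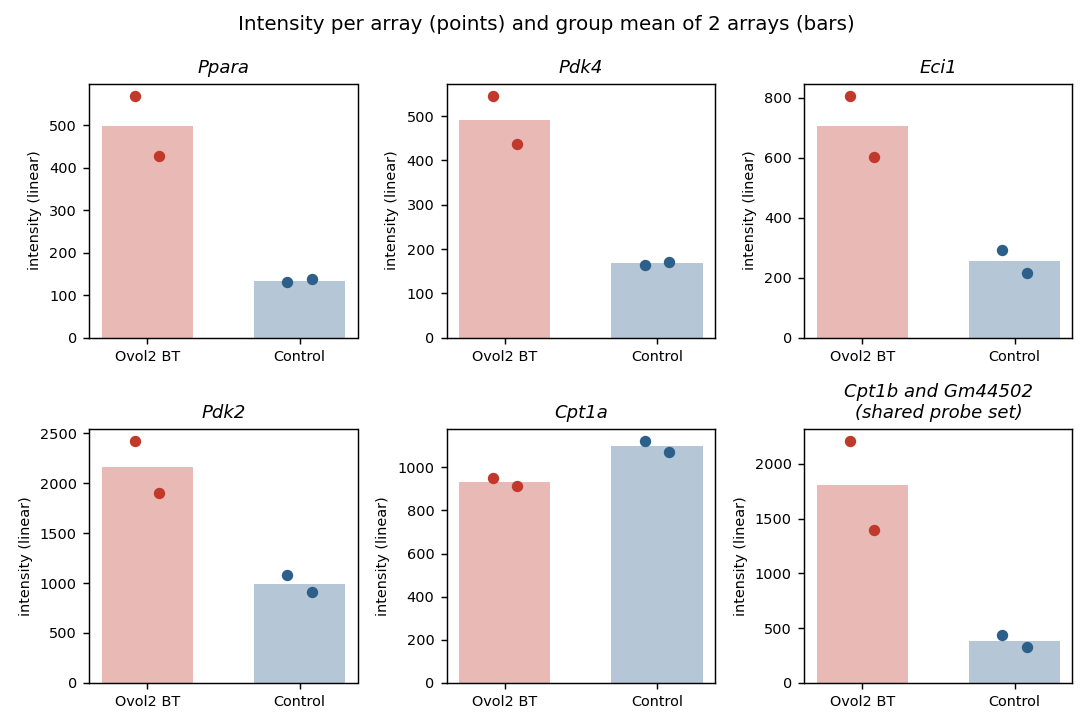
Linear intensity of 5 genes and of the probe set shared by Cpt1b and Gm44502, with points for single arrays and bars for the mean of 2 arrays, Ovol2 BT in red at the left and Control in blue at the right of each panel. Cpt1a alone is lower in Ovol2 BT, and the shared probe set stands at 2208 and 1396 in Ovol2 BT, against 438 and 323 in Control.

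In the carnitine shuttle, 0 of 3 tested genes were called. Cpt1a, the carnitine palmitoyltransferase of the outer membrane in liver and many other tissues, had 953 and 913 in Ovol2 BT skin, against 1122 and 1072 in Control skin. Both Ovol2 BT arrays were lower, by a small amount that did not pass the test (log2 difference -0.23, SE 0.20, 95% interval -0.68 to 0.22, limma adjusted p = 0.698). With arrays centred on junction genes it stood at 0.15. Cpt2, which turns the carnitine ester back into acyl-CoA inside the mitochondrion, had 1606 and 1370 in Ovol2 BT skin, against 927 and 670 in Control skin. Slc25a20, the carnitine-acylcarnitine exchanger of the inner membrane, had 488 and 412 in Ovol2 BT skin, against 277 and 208 in Control skin. Both sets of arrays were apart, at log2 differences of 0.90 (SE 0.23, limma adjusted p = 0.168) and 0.86 (SE 0.23, limma adjusted p = 0.192), without a call. Cpt2 was called without Control replicate 1 (log2 difference 1.13, limma adjusted p = 0.0402).

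Cpt1b encodes the form of the entry enzyme found in muscle and brown fat. Its only probe set also names Gm44502, the read-through transcript of Chkb and Cpt1b, so it was not tested and its values cannot be given to Cpt1b alone. That probe set had intensities of 2208 and 1396 in Ovol2 BT skin, against 438 and 323 in Control skin. Each Ovol2 BT array was well above both Control arrays, while Cpt1a had its Control arrays above.

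All of the acyl-CoA dehydrogenases, which carry out the opening step of each round, had both Ovol2 BT arrays above both Control arrays. That held for 20.4% of all genes tested, and 0 of these 4 genes were called. Acadm, the medium-chain enzyme, had 1441 and 2483 in Ovol2 BT skin, against 1002 and 847 in Control skin (log2 difference 1.03, SE 0.27, limma adjusted p = 0.187). Acadvl, the very-long-chain enzyme of the inner membrane, had 826 and 538 in Ovol2 BT skin, against 351 and 299 in Control skin (log2 difference 1.0, SE 0.25, limma adjusted p = 0.163). Among the Ovol2 BT arrays, replicate 2 was the higher for Acadm and replicate 1 for Acadvl. Acads, the short-chain enzyme, had 1431 and 790 in Ovol2 BT skin, against 664 and 532 in Control skin. Acadl, the long-chain enzyme, had 1153 and 1170 in Ovol2 BT skin, against 684 and 860 in Control skin. Their log2 differences were 0.82 (SE 0.29) and 0.59 (SE 0.21), with limma adjusted p = 0.370 and 0.383. Acadm had a log2 difference of 1.41 with Ovol2 BT replicate 1 left out, and 0.64 with replicate 2 left out. It was called without Ovol2 BT replicate 1 and without Control replicate 1 (limma adjusted p = 0.00963 and 0.0227). Acads and Acadvl were called without Ovol2 BT replicate 2, at 1.25 and 1.31 (limma adjusted p = 0.0330 and 0.0286), and stood at 0.40 and 0.70 without replicate 1.

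Of the enzymes that complete the spiral, 5 of 5 genes had both Ovol2 BT arrays above both Control arrays and 0 were called. Over all genes tested, 20.4% were separated in that direction. Echs1, the short-chain enoyl-CoA hydratase, had 1053 and 947 in Ovol2 BT skin, against 652 and 486 in Control skin (log2 difference 0.81, SE 0.23, limma adjusted p = 0.222). Acaa2, the 3-ketoacyl-CoA thiolase, stood at 0.58 (SE 0.21), and Hadh, the hydroxyacyl-CoA dehydrogenase for shorter chains, at 0.47 (SE 0.18). Hadha and Hadhb encode the subunits of the mitochondrial trifunctional protein, which handles long chains at the inner membrane. Hadha had 2805 and 2847 in Ovol2 BT skin, against 2223 and 1971 in Control skin. Hadhb had 811 and 1114 in Ovol2 BT skin, against 715 and 730 in Control skin. Their log2 differences were 0.43 (SE 0.18, 95% interval 0.03 to 0.83) and 0.39 (SE 0.23, 95% interval -0.12 to 0.90). Omitting Ovol2 BT replicate 1 gave 0.61 for Hadhb and 0.44 for Hadha, and omitting replicate 2 gave 0.16 and 0.42. A further probe set of Hadhb had 755 and 1030 in Ovol2 BT skin, against 661 and 682 in Control skin, with the arrays in the same order. The pair lies head to head in the mouse genome, with 272 bases between the transcription starts of the RefSeq promoter table (GRCm38.p6).

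The auxiliary enzymes of unsaturated fatty acids held the call of the spiral, Eci1, and a gene with a lower value, Eci2. Eci1, the mitochondrial enoyl-CoA isomerase, had 807 and 604 in Ovol2 BT skin, against 294 and 215 in Control skin. It rose by 1.42 on the log2 scale (SE 0.25, 95% interval 0.86 to 1.98, limma adjusted p = 0.0349), with the arrays of the groups far apart. Its call ended without Ovol2 BT replicate 1 (log2 difference 1.21, limma adjusted p = 0.0605). Decr1, the 2,4-dienoyl-CoA reductase, had 514 and 844 in Ovol2 BT skin, against 359 and 359 in Control skin (log2 difference 0.85, SE 0.26, limma adjusted p = 0.283). Decr1 was called without Ovol2 BT replicate 1 (1.20, limma adjusted p = 0.0412) and stood at 0.50 without replicate 2. Eci2, an isomerase found in both peroxisomes and mitochondria, overlapped between groups, with 411 and 532 in Ovol2 BT skin, against 588 and 507 in Control skin (log2 difference -0.22, SE 0.23, 95% interval -0.73 to 0.30). With arrays centred on junction genes Eci2 stood at 0.16.

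Electrons from the acyl-CoA dehydrogenases pass through the electron transfer flavoprotein and its dehydrogenase to ubiquinone. Etfb, the beta subunit, had 4973 and 3542 in Ovol2 BT skin, against 2564 and 2268 in Control skin (log2 difference 0.80, SE 0.20, limma adjusted p = 0.172). Etfdh, the dehydrogenase, had 510 and 800 in Ovol2 BT skin, against 362 and 407 in Control skin (0.71, SE 0.26, limma adjusted p = 0.384). Both were separated between groups. Etfa, the alpha subunit that pairs with Etfb, had 1146 and 1259 in Ovol2 BT skin, against 835 and 1264 in Control skin. Its groups overlapped, at a log2 difference of 0.22 with a 95% interval of -0.32 to 0.77, and it stood at -0.073 without Control replicate 1. Etfb was called without Control replicate 1 (0.88, limma adjusted p = 0.0289) and without Ovol2 BT replicate 2 (1.04, limma adjusted p = 0.0399).

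**Figure D3:**
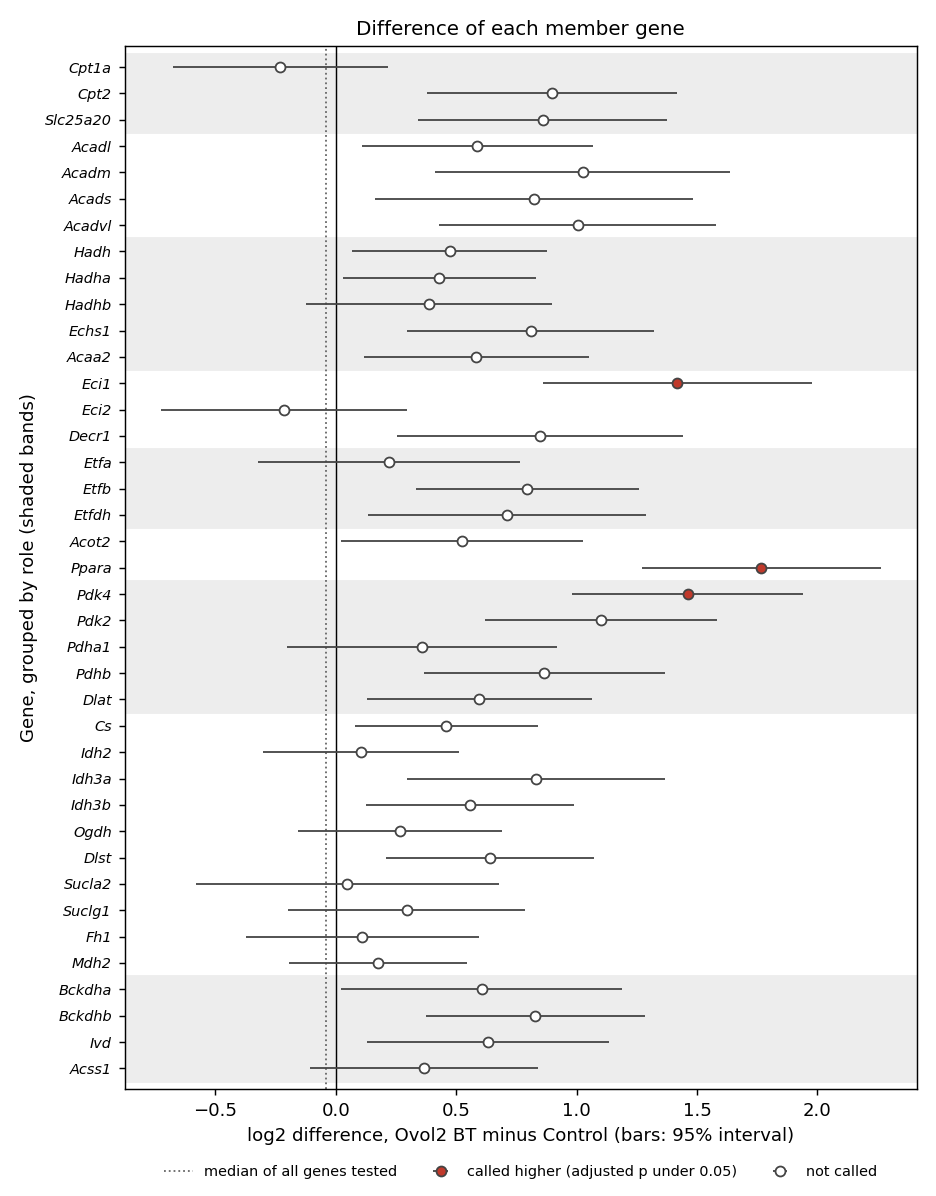
Log2 difference of each of the 39 genes, Ovol2 BT minus Control, with its 95% interval from the limma fit (not adjusted for the number of genes). Filled marks are the 3 called genes; the TCA cycle genes lie between 0.047 and 0.83, and the dotted line is the median of all genes tested at -0.041.

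The TCA cycle genes had the smallest differences of the roles described, with a median of 0.28 over 10 genes. The 18 genes of the shuttle, spiral and flavoproteins had a median of 0.75, and the difference between roles was not tested. This order did not hold in the lists of further genes described below. There the median was 0.29 over 18 other TCA and pyruvate entry genes and 0.24 over 16 other mitochondrial fatty acid genes. Of the other TCA and pyruvate entry genes, 11 were separated upward and 3 downward. The 11 included Idh3g (0.45), Sdha (0.55), Sdhb (0.62), Sdhc (0.30) and Sdhd (0.55), none of them called. None of the 10 TCA cycle genes described here was called by limma. At an unadjusted p under 0.05 in limma, 4 were higher, against 5.11% of all genes tested. For 6 of 10 the groups were separated upward, against 20.4% of all genes tested. Idh3a and Idh3b encode subunits of the NAD-dependent isocitrate dehydrogenase. Idh3a had 1083 and 1541 in Ovol2 BT skin, against 663 and 779 in Control skin (log2 difference 0.83, SE 0.24, limma adjusted p = 0.235). Idh3b had 3435 and 3605 in Ovol2 BT skin, against 2726 and 2088 in Control skin (0.56, SE 0.19, limma adjusted p = 0.348). Dlst, the succinyltransferase of the 2-oxoglutarate dehydrogenase complex, had 2342 and 2138 in Ovol2 BT skin, against 1532 and 1331 in Control skin (0.64, SE 0.19, limma adjusted p = 0.261). Cs, citrate synthase, had 5017 and 4694 in Ovol2 BT skin, against 3857 and 3219 in Control skin (0.46, SE 0.17, limma adjusted p = 0.393). In each of these 4 genes both Ovol2 BT arrays were above both Control arrays.

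The remaining TCA genes of the list stood closer to 0. Ogdh, the decarboxylase of the 2-oxoglutarate complex, and Suclg1, the alpha subunit of succinyl-CoA ligase, were separated between groups at 0.27 (95% interval -0.16 to 0.69) and 0.29 (95% interval -0.20 to 0.79). Mdh2, the mitochondrial malate dehydrogenase, had 5647 and 4947 in Ovol2 BT skin, against 5042 and 4333 in Control skin. Idh2, the NADP-dependent isocitrate dehydrogenase, had 3471 and 2834 in Ovol2 BT skin, against 2961 and 2865 in Control skin. Both overlapped, at 0.18 (95% interval -0.19 to 0.55) and 0.11 (95% interval -0.30 to 0.51). Fumarase, Fh1, stood at 0.11 (95% interval -0.37 to 0.59), and Sucla2, the ATP-forming beta subunit of succinyl-CoA ligase, at 0.047 (95% interval -0.58 to 0.68). The upper ends of these 4 intervals correspond to 1.46-fold for Mdh2, 1.43-fold for Idh2, 1.51-fold for Fh1 and 1.60-fold for Sucla2. Idh2 stood at -0.040 without Ovol2 BT replicate 1, Sucla2 at -0.19 without Control replicate 1, and Sucla2 and Fh1 at -0.31 and -0.069 without Ovol2 BT replicate 2.

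Branched-chain oxidation and acetate activation feed the same pool of acetyl-CoA. All 4 of their genes were separated upward between groups, against 20.4% of all genes tested, with 0 called. Bckdhb, the beta subunit of the branched-chain keto acid dehydrogenase, had 1507 and 1656 in Ovol2 BT skin, against 948 and 822 in Control skin (log2 difference 0.83, SE 0.20, limma adjusted p = 0.142). Its partner Bckdha had 642 and 420 in Ovol2 BT skin, against 375 and 301 in Control skin (0.61, SE 0.26, limma adjusted p = 0.463). Ivd, the isovaleryl-CoA dehydrogenase of leucine breakdown, stood at 0.63 (SE 0.22) and Acss1, the mitochondrial acetyl-CoA synthetase, at 0.37 (SE 0.21).

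Among the 39 genes, replicates differed at least 1.5-fold for 7 genes in Ovol2 BT and for 1 gene in Control. The median absolute log2 difference between replicates was 0.30 in Ovol2 BT and 0.22 in Control, beside 0.24 and 0.19 over all genes tested. Replicate 1 was the higher array for 21 genes in Ovol2 BT and for 29 in Control, and 27 genes ran the same way in both groups. The mean log2 level of the 39 genes was 10.30 and 10.29 in Ovol2 BT skin, against 9.74 and 9.62 in Control skin.

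Upstream sequences are shown for the 3 called genes, for Acadm, a dehydrogenase gene with the nuclear receptor letters AGGTCA upstream, and for Hadha, whose window covers most of the stretch shared with Hadhb. Each is the 250 bases before a transcription start in the RefSeq table (GRCm38.p6), which held 36 of the 40 genes in 43 windows. These genes were picked for display after their values were seen. Capitals mark matches, on either strand, to AGGTCA, to GGGCGG (the GC box of Sp factors) or to CCAAT.
Ppara, chr15:85735526-85735775, plus strand: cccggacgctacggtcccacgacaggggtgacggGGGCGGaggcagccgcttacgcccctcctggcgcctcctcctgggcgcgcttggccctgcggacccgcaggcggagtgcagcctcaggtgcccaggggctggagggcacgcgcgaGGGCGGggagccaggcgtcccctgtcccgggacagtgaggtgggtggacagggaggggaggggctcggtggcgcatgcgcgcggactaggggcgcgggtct
Pdk4, chr6:5496279-5496528, minus strand: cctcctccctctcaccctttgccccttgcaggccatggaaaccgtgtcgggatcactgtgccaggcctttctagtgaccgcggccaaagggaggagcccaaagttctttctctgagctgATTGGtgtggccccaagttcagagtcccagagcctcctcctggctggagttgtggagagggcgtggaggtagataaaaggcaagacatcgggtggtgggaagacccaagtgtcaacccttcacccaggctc
Eci1, chr17:24426433-24426682, plus strand: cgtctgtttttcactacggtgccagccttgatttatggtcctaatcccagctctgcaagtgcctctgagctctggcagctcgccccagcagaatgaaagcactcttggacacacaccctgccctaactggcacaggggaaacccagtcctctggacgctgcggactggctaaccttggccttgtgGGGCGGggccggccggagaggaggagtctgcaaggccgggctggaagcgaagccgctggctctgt
Acadm, chr3:153944644-153944893, minus strand: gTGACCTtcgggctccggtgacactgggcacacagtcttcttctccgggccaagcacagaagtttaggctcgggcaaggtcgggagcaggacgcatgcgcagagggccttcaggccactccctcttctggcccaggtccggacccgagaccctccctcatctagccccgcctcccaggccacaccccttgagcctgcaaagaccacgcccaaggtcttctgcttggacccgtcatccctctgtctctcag
Hadha, chr5:30154981-30155230, minus strand: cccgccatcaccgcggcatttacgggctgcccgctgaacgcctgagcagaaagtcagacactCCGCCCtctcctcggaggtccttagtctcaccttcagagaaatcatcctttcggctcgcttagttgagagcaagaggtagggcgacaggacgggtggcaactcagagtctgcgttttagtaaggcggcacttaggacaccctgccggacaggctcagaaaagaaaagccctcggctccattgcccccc

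AGGTCA, on either strand, was found in 7 of the 43 windows, those of Acadm, Acadvl, Bckdhb, Cpt1a, Echs1, Fh1 and Sucla2, or 16.3% against 14.0% of all 32851 windows of that length. The longer ERR element TCAAGGTCA, which contains it, and the DR1 element of PPARs, which holds AGGTCA repeated after 1 base, were found in 0 of 43 windows, against 0.387% and 0.0335% of all windows. GGGCGG was found in 24 of 43 windows (55.8%, against 32.7% of all), CCAAT in 20 (46.5%, against 33.9%) and TATAAA in 0 (against 12.4%). The median GC content was 58.8% in these windows, against 52.4% in all windows. A match is a description of the letters, and its absence from 250 bases says nothing of the factor.

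Other genes of the pathway, from lists drawn up by function, held 3 further calls. Acacb, the acetyl-CoA carboxylase at the mitochondrial surface that makes the CPT1 inhibitor malonyl-CoA, had 735 and 567 in Ovol2 BT skin, against 135 and 92.3 in Control skin. It rose by 2.37 on the log2 scale (SE 0.24, limma adjusted p = 0.00471), and was the call among 16 tested genes of a list of other mitochondrial fatty acid genes (median 0.24). Pcx, pyruvate carboxylase, had 2777 and 2379 in Ovol2 BT skin, against 596 and 374 in Control skin. It rose by 2.40 (SE 0.25, limma adjusted p = 0.00481), the call among 18 other TCA and pyruvate entry genes (median 0.29). Aldh6a1, an aldehyde dehydrogenase of valine breakdown, had 729 and 719 in Ovol2 BT skin, against 258 and 271 in Control skin. It rose by 1.40 (SE 0.20, limma adjusted p = 0.0157), the call among 16 other branched-chain genes (median 0.45). Of these lists 0 genes were called lower. Over all genes tested, 0.615% were called higher and 0.348% lower. At an unadjusted p under 0.05 in limma, 4, 5 and 6 genes of the lists, in that order, were higher, against 5.11% of all genes. By the same measure 1, 1 and 0 were lower, against 5.24% of all genes.

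Lists around the pathway had 0 calls by limma in either direction. Peroxisomal oxidation had a median of 0.42 over 13 genes. Of these, 7 were higher at an unadjusted p under 0.05 in limma, among them Phyh at 1.0 (SE 0.22). That share was 5.11% over all genes tested. Cytosolic relatives of the enzymes had a median of 0.28 over 6 genes, with 2 such genes, and glycolysis 0.15 over 14 genes, with 1. Regulators of the PPAR and ERR families had a median of 0.25 over 14 genes, with 6 such genes, among them the coactivator Ppargc1a at 0.92 (SE 0.18, limma adjusted p = 0.0661). Known PPAR targets outside the 40 genes had a median of 0.42 over 9 genes, with 4 such genes. Import, ribosome and outer membrane genes of mitochondria had a median of 0.12 over 27 genes, with 0 such genes. Of the 27, 3 were separated upward between groups, against 20.4% of all genes tested. In none of these lists was a gene lower at an unadjusted p under 0.05 in limma, against 5.24% of all genes tested.

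**Figure D4:**
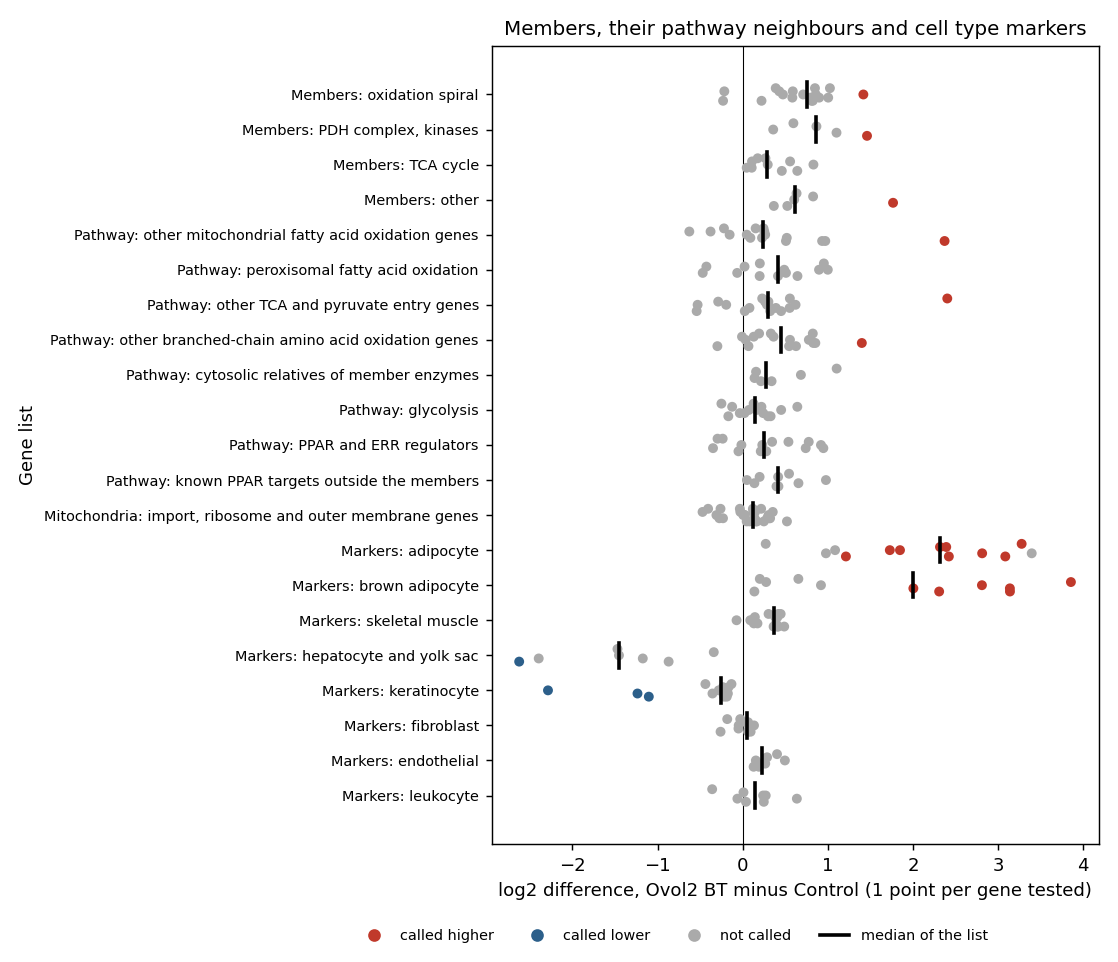
Log2 difference, Ovol2 BT minus Control, of each gene tested (points) in the described genes by role, in lists of pathway neighbours and in lists of cell type markers, with the median of each list as a black bar. Red points were called higher and blue points called lower; the adipocyte and brown adipocyte medians stand at 2.32 and 2.01, and that of the TCA cycle genes at 0.28.

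Fat cell markers were also higher in Ovol2 BT skin. Of 13 adipocyte markers tested, 9 were called higher, against 0.615% of all genes tested, and 0 lower, against 0.348%. Their median was 2.32. Their summed intensity was 33092 and 30379 in Ovol2 BT skin, against 12128 and 7853 in Control skin. Adipoq, the fat hormone gene, had 3568 and 3708 in Ovol2 BT skin, against 1076 and 409 in Control skin, and Plin1, the coat protein of lipid droplets, 2840 and 2302, against 814 and 599. Of 11 brown adipocyte markers tested, 6 were called higher and 0 lower, with a median of 2.01. Their summed intensity, over 12 genes, was 8429 and 6187 in Ovol2 BT skin, against 1714 and 1147 in Control skin. Among the 11 tested, 5 were not called, and the lowest difference was 0.14. Ucp1, the uncoupling protein of brown fat, had 198 and 356 in Ovol2 BT skin, against 37.9 and 44.2 in Control skin. In whole skin, more cells of a type and more RNA per cell cannot be told apart, and the part of fat cells in the differences of the 39 genes was not tested.

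Markers of other tissues moved less or the other way. Skeletal muscle, a tissue that also oxidises fat, had 4 of 16 markers higher at an unadjusted p under 0.05 in limma, against 5.11% of all genes. Its markers had a median of 0.37, with 0 of 16 called. Their summed intensity was 38909 and 45253 in Ovol2 BT skin, against 34804 and 34849 in Control skin, with Ckm at 0.36 and Acta1 at 0.13. Hepatocyte and yolk sac markers were lower, with 1 of 7 called (Alb, which fell by 2.63, SE 0.45, limma adjusted p = 0.0328) and a summed intensity, over 9 genes, of 1402 and 914 in Ovol2 BT skin, against 6570 and 2787 in Control skin. Keratinocyte markers had 3 of 12 called lower (Krt5, Krt14 and Krt15) and a sum of 56037 and 51515 in Ovol2 BT skin, against 78128 and 66066 in Control skin. Over all genes tested, 0.348% were called lower. Fibroblast markers, with 0 of 12 called, had sums of 53258 and 53653 in Ovol2 BT skin, against 52137 and 53311 in Control skin. Endothelial and leukocyte markers had 0 of 8 called each, with medians of 0.23 and 0.14. No marker was listed under 1 on any array. The part of these tissues in the differences of the 39 genes was not tested.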

How the data were processed

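Total RNA of 2 Ovol2 BT and 2 Control arrays was compared. Per the submitters' processing notes, the authors obtained the deposited intensities (linear, 1 value per probe set) from Affymetrix Expression Console 1.1.1 with PLIER 2.0. How background was corrected, how arrays were normalized and which genome build was used is not given in the sources used here. Of 35557 probe sets, 21789 name 1 gene, 1621 several and 12147 none in the platform annotation; 21698 matched the reference table by Entrez ID, with 0 symbols changed. For genes with several probe sets (999) the one with the highest mean intensity was used.

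Values were analysed as log2(intensity + 16), so folds understate changes of dim genes. A group term was fitted by limma 3.58.1 (R 4.3.3; moderated by eBayes along a trend of variance with level, with 2 residual degrees of freedom and 6.94 from the prior; two-sided tests) to all 14953 genes above the lowest 25% by mean log2 level (4985 left out), with Benjamini-Hochberg adjustment over all of them, and tested on simulated data. Intervals are 95% and not adjusted. Tables and plots used Python 3.11.15, pandas 2.3.3, scipy 1.17.1 and matplotlib 3.10.9.

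The 40 genes, the other lists and the alternatives were chosen with earlier results of these data known, and lists got no set test. All 40 genes could be named, along with Ovol2 and defining markers. So could the called genes of each other list (up to 6, or up to 3 with the smallest p where none was called). Acot1, Pdk1, Pdk3, Idh3g, Sdha, Sdhb, Sdhc and Sdhd lie outside that rule and were added after their values were seen. An alias of Eci2 was removed from the peroxisomal list. Fabp3, Fabp4 and Ppargc1a each stand in several lists. The rule for upstream sequences asked for an ERR or DR1 match, which no window held, so those shown, and the GC box, CCAAT and TATAAA searches, were chosen afterwards.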

Additional observations from a re-analysis of the deposited data

How the results depend on the processing

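Ppara and Pdk4 were called higher under all 16 alternatives: pseudocounts of 1 and 64, no filter or the lowest 50% left out, quantile normalization, median or junction centring, no or a robust variance trend, mean of probe sets, replicate block, each array left out, and a threshold of 0.10. Eci1 was called under all but 1, without Ovol2 BT replicate 1. None of the 39 genes was called lower by limma under any of them, with 0 lower at an unadjusted p under 0.05 as reported. The count of genes called higher was 3 or 4 under the other settings, 27 with junction centring and 19 with the replicate block, and ranged from 3 to 7 with 1 array left out. The 19 genes called with the replicate block included Pdk2, Cpt2, Slc25a20, Acadm, Acads, Acadvl and Etfb, each without a call as reported. The median log2 difference was 0.97 with junction centring and 0.53 to 0.72 with 1 array left out (0.60 as reported). Over all genes the calls numbered 1455 with junction centring (1388 higher, 67 lower), 671 with the replicate block (323 higher, 348 lower) and 206 to 366 with 1 array left out, against 144 as reported (92 higher, 52 lower), and at a threshold of 0.10 the lower calls numbered 89.

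Cpt1a and Eci2 changed sign with junction centring (0.15 and 0.16). With 1 array left out, Etfa ranged from -0.073 to 0.52, Idh2 from -0.040 to 0.25, Sucla2 from -0.31 to 0.40 and Fh1 from -0.069 to 0.29; none of these was called, and the cause was not tested. Alb lost its call under quantile normalization and Krt5 under junction centring (adjusted p in limma 0.0531 and 0.0559). Arrays share only a replicate number. Across genes, the deviations of arrays with the same number had r = 0.41, which with 2 pairs does not settle a pairing. A fit that leaves out an array assumes that the lone array varies like the others. With 2 arrays per group, an absent call does not show that a gene did not change.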
